A study of Homo sapiens with 6 samples.

Results

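The baseline transcriptome described here is that of A549 cells transfected with a control siRNA (siControl). It comprised the 3 siControl samples of the 6 samples in the series, and it was read across all 23180 gene symbols of the deposited count table, each represented by its transcript with the largest count. A549 is an established human lung adenocarcinoma cell line that the study describes as carrying a CDKN2A mutation, among others. The label gives the genotype as WT for these samples, at passage 11, and RNA was sequenced 3 days after transfection with siRNA at 65 nM. The labels call the samples biological replicates of a single cell line, so the spread given below is that between cultures of one line, and a transfected culture is not an untreated one. No sample without siRNA and no normal lung cell was compared.

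Lung adenocarcinoma arises from cells of the distal lung epithelium. Alveolar type II cells, which make surfactant, are defined by the surfactant proteins and by the transcription factor NKX2-1, while FOXA2 acts in the wider endoderm from which lung, liver and gut derive. KEAP1 holds down NRF2, the transcription factor that switches on genes for glutathione synthesis, thioredoxin reduction, NADPH production, iron storage and carbonyl reduction. CDKN2A encodes the cell cycle inhibitors p16 and ARF and is often lost in lung cancer.

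Of the 5 genes used to check the identity of the sample, 2 were abundant, 1 was near the median of the genes at 1 CPM or more, and 2 were at or near 0. KRT18, a keratin of simple epithelium, had 2005, 2103 and 2241 CPM (counts of the gene relative to all counts of the sample) in replicates 1, 2 and 3, and the aldo-keto reductase AKR1B10 had 1232, 1150 and 1205 CPM. FOXA2 had 24.9, 28.0 and 29.6 CPM, beside that median of 29.2 CPM. The surfactant gene SFTPB had 1 count in replicate 1 and 0 in the others. CDKN2A had 0 counts in every sample. The cells therefore carried transcripts of a keratin of simple epithelium and of an endoderm factor, and almost none of the surfactant gene SFTPB. Single genes do not settle the cell type, and the wider lists are given below.

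Library totals were 18238034.5, 15551778 and 18568639.5 estimated counts in replicates 1, 2 and 3. A count of 0 in a sample allows up to 3 counts, which is 0.162 to 0.193 CPM at these depths. This limit and every statement on counting error cover counting alone. Values compared between genes are CPM per kb of transcript length (CPM per kb), and values of a single gene are CPM. The sources used here do not state whether counting used the strand, so the reads of overlapping genes cannot be told apart, which concerns 24.2% of the symbols.

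Counts were spread over most of the annotated genes. Of the 23180 symbols, 18210 (78.6%) had a count in at least 1 siControl sample, 12852 (55.4%) had 1 CPM or more in each sample, and 4970 (21.4%) had 0 counts in each. Single samples had 13082, 13138 and 13160 symbols at 1 CPM or more, so the samples differed little in this number. Genes with a coding RefSeq accession reached 1 CPM in each sample in 63.4% of 18817 cases, against 21.1% of 4363 genes with a noncoding accession. Of the 1653 transcripts shorter than 200 bases, 2.60% reached it.

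A small group of genes held most of the counts. The 2351 genes with a mean over 100 CPM were 10.1% of all symbols and held 69.9% of the counts, while 7139 genes above 10 and up to 100 CPM held 28.3%. The 10 most abundant genes held 4.98% ± 0.10 of the counts (SD, n = 3), the 100 most abundant 18.1% ± 0.15 and the 1000 most abundant 51.0% ± 0.07. Among the genes at 1 CPM or more the median was 29.2 CPM or 9.08 CPM per kb, the 5th percentile was 2.07 CPM and the 95th was 277 CPM. The number of genes with a mean over 1000 CPM was 85. Across those 12852 genes, transcript length and CPM were almost unrelated (Spearman's rho 0.05, a description across genes, which are not independent replicates), while CPM per kb fell with length (rho -0.35).

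**Figure D1:**
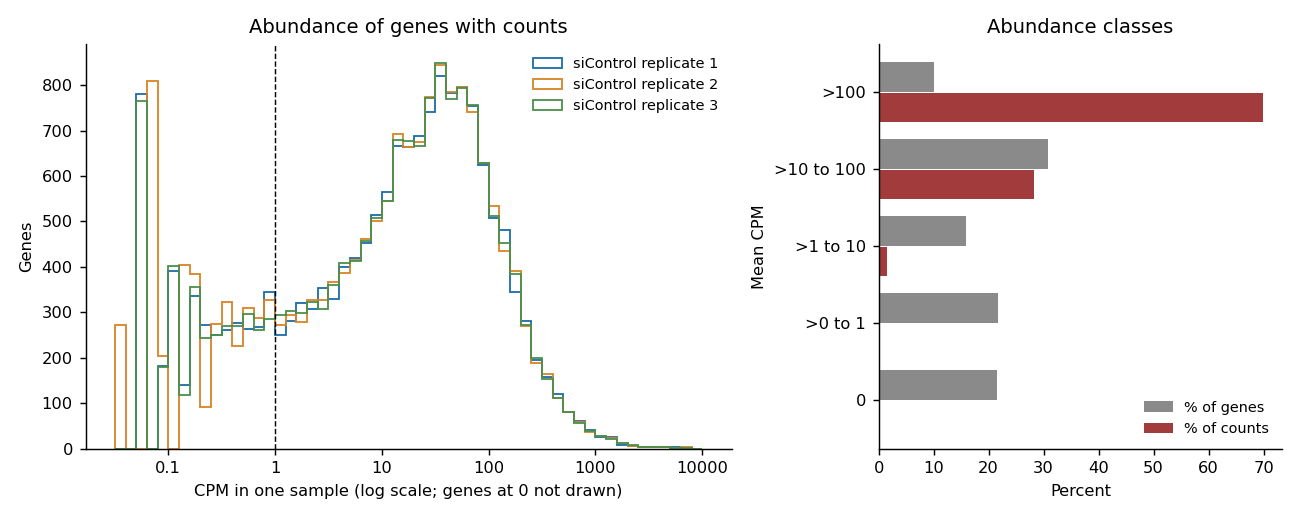
The left panel is a histogram of genes by CPM (log axis) in each of the 3 siControl samples, with genes at 0 left out and a dashed line at 1 CPM. The right panel gives, for 5 classes of mean CPM, the percent of the 23180 genes (grey) and the percent of counts (red); the class over 100 CPM had 10.1% of genes and 69.9% of counts.

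The most abundant transcripts coded for iron storage, autophagy, the cytoskeleton, lysosomes, glycolysis and protein folding. FTL, the light chain of ferritin, was first on both scales, with 6120, 6977 and 7042 CPM and a mean of 7770 ± 595 CPM per kb (SD, n = 3). SQSTM1, the autophagy receptor p62, followed by CPM with 6076, 6475 and 6587, and then gamma actin ACTG1 with 5439, 6315 and 6108 CPM. The SD was 7.66%, 4.22% and 7.69% of the mean for FTL, SQSTM1 and ACTG1, beside a median of 4.30% over genes above 1000 CPM. Replicate 1 was the lowest for all 3 genes. PSAP, the precursor of the lysosomal saposins, had 5971, 5290 and 5583 CPM, and SCD, which desaturates stearic acid, had 5308, 4495 and 4691 CPM. Both were highest in replicate 1.

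The other genes among the 20 with the most counts included ENO1, GAPDH and PKM (glycolysis), FTH1 (ferritin heavy chain), TXNRD1 (thioredoxin reductase), HSPA5, HSP90B1 and HSPA8 (chaperones), EEF1A1 and EIF1 (translation), ITGB1 (an integrin), SLC7A5 and SLC3A2 (together an amino acid exchanger), and RPS16 of the small ribosomal subunit. The means of these genes ran from 2158 CPM for RPS16 to 4253 CPM for ENO1. The deposited spans of SQSTM1, FTH1, ENO1 and TXNRD1 overlap those of C5orf45, BEST1, ENO1-AS1 and EID3. Per kb, the short ribosomal protein transcripts moved up. Of the 20 genes of 300 bases or more with the highest CPM per kb, 8 were also among the 20 by CPM, and the new ones included RPLP1 (3144 CPM per kb), RPL27 (2796), RPS19 (2523) and TPT1 (2362), as well as TMSB10, which binds actin monomers (3029).

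Ribosomal proteins took 5.15%, 5.53% and 5.41% of the counts of replicates 1, 2 and 3. Of their 85 listed genes, 83 (97.6%) had 1 CPM or more in each sample, beside 63.4% of genes with a coding accession. The median of the ribosomal genes was 748 CPM per kb against 9.08 over all genes at 1 CPM or more. All 17 genes of the list of elongation and other translation factors were at 1 CPM or more, with a median of 394 CPM per kb. Messages of this class are known to start with a C followed by a run of pyrimidines, the 5′ terminal oligopyrimidine (TOP) motif, through which their translation is controlled. The starts of 4 abundant members are given here because they show the motif. The sequences are from RefSeq (GRCh38.p14), from 30 bases before the annotated start to 30 bases into the transcript, 5′ to 3′ on the transcribed strand, with the pyrimidine run from the first transcribed base in capitals.
RPS16, chr19:39435920-39435979, minus strand: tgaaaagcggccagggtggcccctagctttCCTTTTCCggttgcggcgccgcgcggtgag
RPLP1, chr15:69452788-69452847, plus strand: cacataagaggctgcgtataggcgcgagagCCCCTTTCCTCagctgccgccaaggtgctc
TPT1, chr13:45341154-45341213, minus strand: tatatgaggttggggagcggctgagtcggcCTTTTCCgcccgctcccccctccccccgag
RPS6, chr9:19380207-19380266, minus strand: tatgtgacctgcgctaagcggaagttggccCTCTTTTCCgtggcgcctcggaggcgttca

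The run was 8 bases long in RPS16, 11 in RPLP1, 7 in TPT1 and 9 in RPS6. A start of C followed by at least 4 pyrimidines was found in 71.9% of 57 ribosomal protein genes with a single listed start, in 70% of 10 translation factor genes and in 4.61% of all 12200 genes with a single listed start. Among genes over 1000 CPM the share was 20.8% of 48. These are matches to letters at an annotated start, and starts in use in A549 cells were not measured.

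Epithelial genes were present with large differences between members. Of 23 genes of simple epithelium, 19 had 1 CPM or more in each sample, a share of 82.6% beside 63.4% of genes with a coding accession. The keratins led: KRT7 had 1226, 1337 and 1356 CPM, KRT8 had 1252, 1336 and 1394 CPM, and KRT18 lay above KRT8 by a factor of 1.95 ± 0.02 per kb (SD, n = 3). The desmosomal genes DSP (201 CPM) and DSG2 (167 CPM), plakoglobin JUP (190 CPM) and the tight junction genes TJP1 (278 CPM) and CLDN1 (173 CPM) were also above 100 CPM. The desmosomal genes PKP3 (24.7 CPM), DSC2 (20.6 CPM) and PKP2 (18.3 CPM) and the keratin KRT19 (59.7 CPM) were lower. Against these stood CDH1, which encodes the adherens junction protein E-cadherin, with 4.39, 2.48 and 3.66 CPM, and the surface glycoprotein EPCAM with 4.39, 3.60 and 4.01 CPM. The splicing regulator ESRP1 had 0.450 ± 0.036 CPM (SD, n = 3) and the epithelial transcription factor GRHL2 had 0 counts in each sample.

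Genes of the mesenchymal state were present beside the keratins, and 13 of 14 (92.9%) had 1 CPM or more in each sample, beside 63.4% of genes with a coding accession. The intermediate filament gene VIM had 1101, 1175 and 1184 CPM, and N-cadherin CDH2 had 98.6, 79.5 and 84.5 CPM. Per kb, CDH2 exceeded CDH1 by 28.6 ± 6.0 times (SD, n = 3), with ratios of 24.8, 35.4 and 25.5 in the 3 samples, and VIM exceeded CDH1 by 790 ± 258 times. CDH1 rested on 80, 38.5 and 68 counts, and the spread of both ratios was wide. ZEB1, a repressor of epithelial genes, had 36.5 ± 0.78 CPM (SD, n = 3), ZEB2 10.4 ± 1.7 CPM and SNAI2 0.693 ± 0.21 CPM. Of 12 fibroblast genes, 5 had 1 CPM or more in each sample (41.7%), below the 63.4% of genes with a coding accession. They were COL5A1 (30.5 CPM), ACTA2 (9.77 CPM), THY1 (4.46 CPM), COL1A1 (4.42 CPM) and LUM (3.25 CPM). The matrix genes COL1A2, DCN and POSTN were at 0 in each sample and COL3A1 had 0.0956 CPM.

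Alveolar type II genes were divided. Their share at 1 CPM or more in each sample was 40%, as for alveolar type I genes, and 20% for airway genes. That share was 63.4% for genes with a coding accession. Of 15 genes, 6 had 1 CPM or more in each sample: LPCAT1, which makes surfactant lipid (159 CPM), ETV5 (80.9 CPM), the lipid transporter ABCA3 (42.7 CPM), the cathepsin CTSH (28.3 CPM), LAMP3 (4.37 CPM) and the aspartic protease NAPSA (1.37 CPM). The surfactant proteins were near the floor. SFTPA1 and SFTPA2 had 0 counts in each sample, SFTPC had 1 count in all, and SFTPD had 0.103 ± 0.054 CPM. NKX2-1 had 0.439, 0.643 and 0.323 CPM. Genes of alveolar type I cells reached 1 CPM in 4 of 10 cases, led by caveolin CAV1 (68.4 CPM), with PDPN and AQP5 at 0 in each sample. Genes of airway cells reached it in 3 of 15 (5 without replicate 2), none of them above 3.73 CPM, and the secretory marker SCGB1A1 and the basal keratins KRT5 and KRT14 were at or near 0.

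Of 22 endoderm transcription factors, 16 (72.7%) had 1 CPM or more in each sample, beside 63.4% of genes with a coding accession. FOXA1 had 21.3, 21.3 and 21.4 CPM and NR5A2 had a mean of 17.9 CPM. SOX9 had 7.30 CPM, GATA4 6.83 CPM and HNF4A 6.63 CPM. Per kb, FOXA2 exceeded NKX2-1 by 54.7, 41.9 and 88.4 times in the 3 samples (mean 61.7, SD 24.0). NKX2-1 lay below 1 CPM in each sample, so these ratios rest on few counts. The intestinal factor CDX1 was at 0 in each sample and CDX2 had 2.83 ± 0.90 CPM (SD, n = 3).

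Some plasma protein genes that these factors serve in the liver had counts and others had none. Of 30 such genes, 12 (40%) had 1 CPM or more in each sample, beside 63.4% of genes with a coding accession. Vitronectin VTN had 41.9, 37.5 and 37.9 CPM, fibrinogen alpha FGA 36.9, 29.5 and 38.1 CPM and ceruloplasmin CP 36.4, 30.7 and 34.9 CPM. The other fibrinogen chains FGG (15.3 CPM) and FGB (6.73 CPM) were also above 1 CPM. Albumin ALB, APOB, APOA2, APOC3, AHSG and HP had 0 counts in each sample. The carbamoyl phosphate synthetase CPS1, the entry enzyme of the urea cycle, had 153, 119 and 127 CPM. OTC and ARG1 of the same cycle were at 0 in each sample.

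Markers of other cell types were present to different degrees. At 1 CPM or more in each sample were 0% of endothelial, 22.2% of immune and 33.3% of neuroendocrine genes. Of genes with a coding accession, 63.4% reached that level. None of 10 endothelial genes reached 1 CPM in each sample, and the most abundant was CDH5 with 0.586 CPM. Of 18 immune genes, 4 reached it: the lysosomal gene CD68 (83.5 CPM), CD8A (11.7 CPM), CD79A (4.01 CPM) and CD14 (3.68 CPM). The defining leukocyte genes PTPRC and CD3E had 1 and 0 counts in all. Of 12 neuroendocrine genes, 4 reached 1 CPM, and the ubiquitin hydrolase UCHL1 had 678, 692 and 694 CPM. The granins CHGB (28.3, 21.9 and 26.6 CPM) and CHGA (1.90 CPM) and the synaptic vesicle gene SYP (7.16 CPM) were the others, while NEUROD1, INSM1 and GRP had 0.

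**Figure D2:**
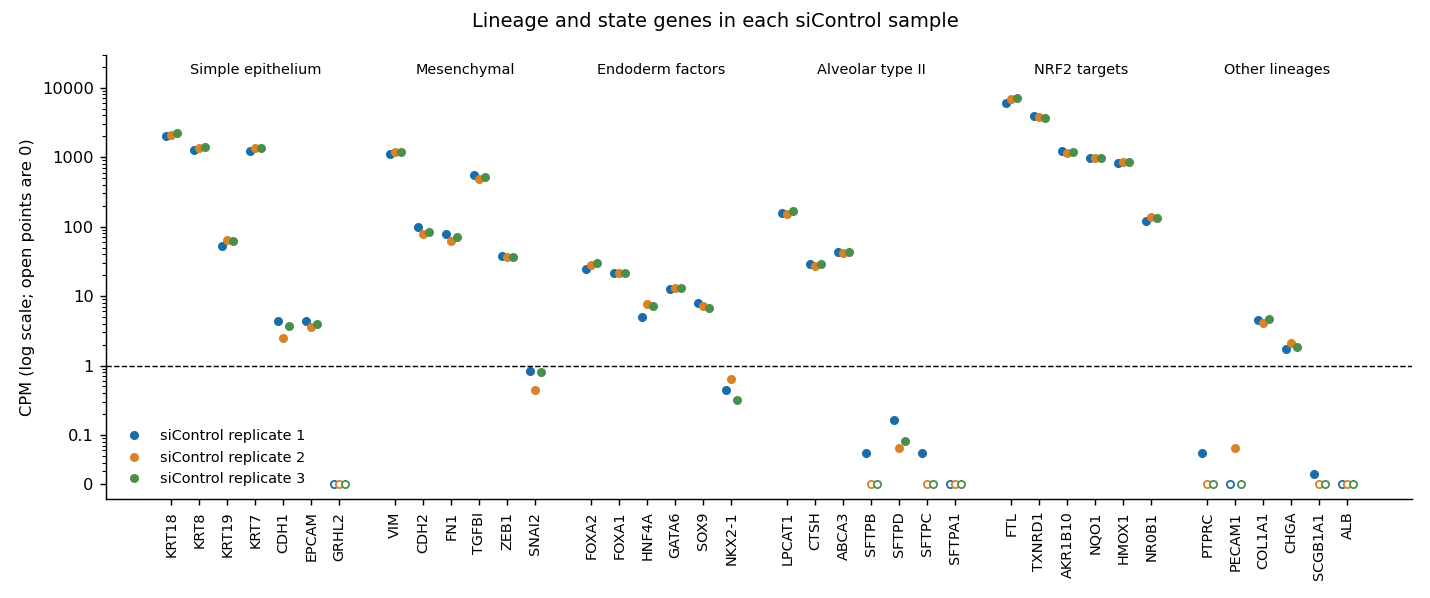
CPM (log axis) of selected lineage and state genes in each of the 3 siControl samples, one point per sample, with open points at the base for 0 counts and a dashed line at 1 CPM. Keratins, VIM and the NRF2 targets lie above 100 CPM in most cases, whereas GRHL2, SFTPA1 and ALB are at 0 in every sample and NKX2-1 lies below 1 CPM in all 3.

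Targets of NRF2 were present throughout: all 38 had 1 CPM or more in each sample, beside 63.4% of genes with a coding accession. The median of the 38 targets was 237 CPM, and 31 of them were over 100 CPM beside 10.1% of all symbols. The list was written from general knowledge of the pathway, with the abundance of AKR1B10 in these cells known. In the thioredoxin branch TXNRD1 had 3930, 3737 and 3676 CPM and PRDX1 859 CPM. Among the reductases of carbonyls and quinones, AKR1B1 had 1640 CPM, AKR1C2 1337 CPM, NQO1 980 CPM, AKR1C3 896 CPM and AKR1C1 537 CPM, while AKR1C4 had 5.07 CPM. AKR1C2 and AKR1C1 are close copies, and reads that fit both could be split between them. Heme oxygenase HMOX1 had 849 CPM. IDH1 (634 CPM) and ME1 (182 CPM) make NADPH, and TKT (1113 CPM) and TALDO1 (396 CPM) belong to the pentose phosphate pathway. Glutathione depends on the cystine importer SLC7A11 (543, 463 and 471 CPM), on GCLC (116 CPM) and GCLM (183 CPM) for synthesis, and on the exporters ABCC1 (270 CPM) and ABCC2 (374 CPM) for disposal of its conjugates. NFE2L2, which encodes NRF2, had 294 ± 3.3 CPM (SD, n = 3), and per kb it exceeded its inhibitor KEAP1 by 4.01 ± 0.44 times.

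The antioxidant response element through which NRF2 binds has the core TGACNNNGC. It was found on either strand, within 250 bases before to 50 bases after the start, in 6 of 20 NRF2 targets with a single listed start (30%) and in 14.6% of all 12200 such genes. Other sets had similar shares to the targets, with 28.6% of 28 proteasome genes, 26.7% of 15 glycolysis genes and 22.9% of 48 genes over 1000 CPM. With 20 promoters the share moves by 5 percentage points for each one, and elements outside this window were not searched.

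The aldehyde dehydrogenases were led by a single member. ALDH1A1, which oxidizes retinal and is widely used as a marker of stem-like cells, had 2086, 1951 and 2024 CPM, and the next by CPM was ALDH3A2 with 194 CPM. ALDH1A1 exceeded ALDH3A1 per kb by 60.5 ± 4.5 times (SD, n = 3). Of the 19 members, 15 (78.9%) had 1 CPM or more in each sample, beside 63.4% of genes with a coding accession. Among enzymes of xenobiotic and hormone metabolism, CYP24A1, which inactivates vitamin D, had 632, 581 and 600 CPM, glutathione transferase GSTP1 had 584 CPM and CYP1B1 300 CPM. The hepatic CYP3A4 had 0.00914 CPM, and CYP1A2, GSTA1 and GSTT1 were at 0 in each sample.

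The isoforms of glycolytic enzymes differed in level. ENO1 exceeded ENO2 by 45.4 ± 3.0 times per kb (SD, n = 3), PFKP (186 CPM per kb) lay above PFKM (33.6 CPM per kb) and exceeded PFKL by 34.1 ± 1.8 times, HK1 exceeded HK2 by 6.32 ± 0.13 times and LDHB exceeded LDHA by 2.59 ± 0.07 times. The glucose transporters SLC2A3 and SLC2A1 had nearly the same level per kb, with a ratio of 0.973 ± 0.040. Actin showed a similar contrast, since ACTG1 exceeded ACTB by 5.71 ± 0.20 times per kb. How reads that fit both actin genes were counted is not given in the sources used here, so this ratio is uncertain. Of the 39 proteasome genes 37 (94.9%), and of the 85 genes of oxidative phosphorylation 78 (91.8%), had 1 CPM or more in each sample. Of genes with a coding accession, 63.4% reached that level. The medians of the proteasome and oxidative phosphorylation lists were 101 and 90.8 CPM per kb.

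Growth and cancer genes spanned a wide range. All 22 proliferation genes had 1 CPM or more in each sample, beside 63.4% of genes with a coding accession. The proliferation genes ran from 2.95 CPM for the mitotic kinase PLK1 to 138 CPM for the replication clamp PCNA. MKI67 had 10.1, 8.55 and 11.5 CPM. Of 30 lung cancer driver genes, 24 (80%) reached 1 CPM in each sample, beside 63.4% of genes with a coding accession. MYC had 304, 315 and 306 CPM, the receptor tyrosine kinase MET had 382, 327 and 349 CPM, and CDKN1A, a p53 target, had 569, 618 and 604 CPM. Per kb, MET exceeded EGFR by 15.9 ± 1.3 times (SD, n = 3). The chromatin remodelling ATPase SMARCA4 had 5.32, 5.50 and 6.35 CPM, and its paralog SMARCA2 had 80.8, 75.9 and 75.3 CPM, a ratio of 13.3 ± 1.6 per kb. MYCN was at 0 in each sample and ALK had 0.0397 CPM.

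Transcripts of the KMT9 subunits differed strongly in level. TRMT112, the beta subunit and also a partner of other methyltransferases, had 166, 190 and 185 CPM, and N6AMT1, the alpha subunit, had 10.6, 11.3 and 11.9 CPM. Per kb, TRMT112 exceeded N6AMT1 by 133, 142 and 132 times. These ratios depend on the transcript length listed for each gene, and protein was not read here.

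CDKN2A lay in a silent region between genes with counts. The edges of that region fall in stretches without listed genes, so gene counts cannot place them. On chromosome 9 of hg19, CDKN2A-AS1, CDKN2A, CDKN2B-AS1 and CDKN2B, which together span 21967138 to 22121093 (0.154 Mb), had 0 counts in each sample. This held for all 4 listed transcripts of CDKN2A and for both of CDKN2B, which encodes the inhibitor p15. The genes on either side had counts. MTAP, an enzyme of methionine salvage from 21802635 to 21865969, had 134.5, 125.5 and 157.5 counts (7.37, 8.07 and 8.48 CPM), and DMRTA1 had 16.1, 16.0 and 15.9 CPM. Farther along on the MTAP side, the 14 interferon alpha symbols (including the pseudogene IFNA22P) and IFNB1 were at 0 in each sample. The single KLHL9 gene among them had 96.7, 98.4 and 93.3 CPM. Nearer to MTAP, the interferon gene IFNE had a mean of 0.319 CPM and MIR31HG 1.87 CPM. DNA copy number was not measured in these files, so a deleted gene and a gene without transcripts cannot be told apart.

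**Figure D3:**
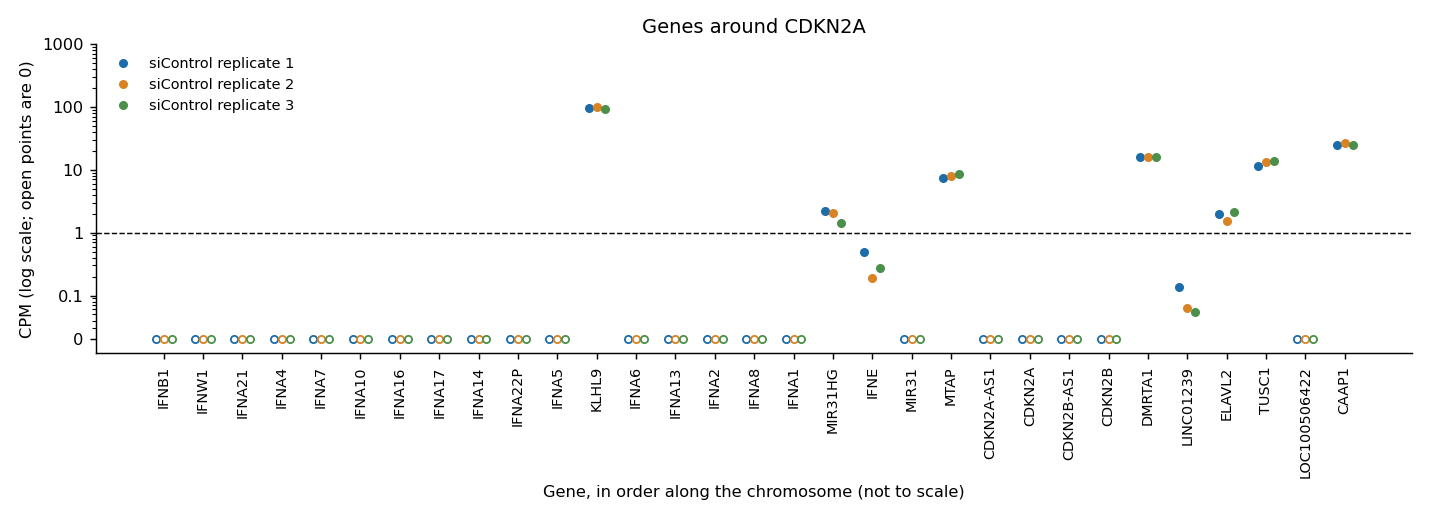
CPM (log axis) in each of the 3 siControl samples for the genes around CDKN2A in their order along the chromosome, without scale, with open points for 0 counts and a dashed line at 1 CPM. The CDKN2A and CDKN2B genes are at 0 between MTAP (7.98 CPM) and DMRTA1 (16.0 CPM), and KLHL9 (96.1 CPM) lies among interferon alpha genes at 0. Nearer to MTAP, IFNE has 0.319 CPM and MIR31HG 1.87 CPM.

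Silence was common in families with tissue-restricted roles. At 0 in each sample were 94.1% of olfactory receptors, 92.1% of keratin-associated proteins, 92.5% of beta-defensins and 73.2% of cancer-testis antigens. The share at 0 was 21.4% over all symbols and 16.0% over genes with a coding accession. Of 392 olfactory receptor symbols, 369 had 0 counts in each sample and only the pseudogene OR7E14P reached 1 CPM in each (3.60 CPM). Among 89 keratin-associated proteins of hair, 82 were at 0 and none reached 1 CPM. Of 40 beta-defensins, antimicrobial peptides, 37 were at 0 and only DEFB1 reached 1 CPM in each sample (1.71 CPM). Cancer-testis antigens were at 0 in 71 of 97 cases, and 3 reached 1 CPM, of which MAGEA6 had 48.6, 48.7 and 50.8 CPM, far above MAGEA12 (1.29 CPM) and MAGEB6 (1.28 CPM). The MAGEA genes are close copies, so the division of reads between them is uncertain. Runs of 22 GAGE and 13 CT47 entries were at 0, as were beta-defensin pairs such as DEFB103A and DEFB103B. How reads that fit several copies were counted is not given in the sources used here. A 0 in such copies therefore cannot be told apart from reads left uncounted.

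HOX genes, which set position along the body axis, had 1 CPM or more in each sample in 28 of 39 cases (71.8%, beside 63.4% of genes with a coding accession), led by HOXB9 (51.5 CPM) and HOXB7 (39.1 CPM). Clustered histone genes, whose messages mostly lack a poly(A) tail, reached 1 CPM in 11 of 73 cases (15.1%). They were led by HIST1H1C (134 CPM) and HIST1H2BK (131 CPM). Of 1208 microRNA gene entries, 943 (78.1%) were at 0, beside 70.0% of all transcripts shorter than 200 bases. Of the 35 at 1 CPM or more, 34 lay within the deposited span of a longer gene. MIR3652, with 46.9, 46.1 and 48.4 CPM, lies within HSP90B1. All 9 snoRNA genes at 1 CPM or more also lay within a longer gene. Counts at these entries cannot be told apart from those of the longer transcript and are no measure of the mature small RNA.

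Silent genes also lay side by side. On the autosomes and chromosome X, 4811 genes at 0 formed 2654 runs of neighbouring symbols. Of these, 114 runs held 5 genes or more and together 1175 genes, and 1762 consisted of a single gene. The longest run, 51 genes from DPRX to MIR373 on chromosome 19 (54135310 to 54292027 in hg19), holds a primate microRNA cluster. The next, 49 genes from PWAR1 to SNORD115-48 on chromosome 15, lay between IPW and UBE3A (84.7 CPM), both above 1 CPM, in an imprinted region of snoRNA repeats. Runs of 45 genes on chromosome 1 (OR2B11 to LYPD8) and 44 on chromosome 11 (OR4A5 to OR5M8) held 41 olfactory receptors each, and 45 entries from SNORD114-27 to MIR410 on chromosome 14 were snoRNAs and microRNAs of another imprinted cluster. A run of 40 genes on chromosome 21 from GRIK1 to KRTAP19-8 began next to BACH1, which had 83.3 CPM. Among coding genes the share at 1 CPM or more in each sample was lowest on chromosomes X (49.2% of 790) and 21 (49.3% of 213), and highest on chromosome 15 (71.1% of 540). On chromosome 11 it was 54.9%, and 63.2% without the olfactory receptors. Chromosome 21 holds silent runs of 40 and 16 genes, mostly keratin-associated proteins, and its share without that family was not computed.

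Promoters of silent and abundant genes differed in letters. CpG islands, stretches in which the CG dinucleotide has not been depleted, mark the promoters of most widely used genes, whereas a TATA box is more typical of genes limited to certain tissues. Of coding genes with a single listed start, a ratio of observed to expected CG above 0.6 over the 300 bases around the start was found in 19.7% of 1886 at 0 counts, 41.7% of 2066 up to 1 CPM, 76.8% of 1668 up to 10 CPM, 90.8% of 4042 up to 100 CPM and 94.3% of 1330 over 100 CPM. The hexamer TATAAA on the transcribed strand in the same window ran the other way, from 18.8% at 0 to 2.75% at 10 to 100 CPM, with 4.66% over 100 CPM. Ribosomal protein genes had a ratio above 0.6 in all 57 cases, and olfactory receptor genes in 1.41% of 283. The promoters of ACTG1, an abundant gene, and of the olfactory receptor OR2B11, which opens the silent run on chromosome 1, are shown as examples. They run from 250 bases before to 50 bases after the start (RefSeq, GRCh38.p14, transcribed strand) with each CG in capitals.
ACTG1, chr17:81512750-81513049, minus strand: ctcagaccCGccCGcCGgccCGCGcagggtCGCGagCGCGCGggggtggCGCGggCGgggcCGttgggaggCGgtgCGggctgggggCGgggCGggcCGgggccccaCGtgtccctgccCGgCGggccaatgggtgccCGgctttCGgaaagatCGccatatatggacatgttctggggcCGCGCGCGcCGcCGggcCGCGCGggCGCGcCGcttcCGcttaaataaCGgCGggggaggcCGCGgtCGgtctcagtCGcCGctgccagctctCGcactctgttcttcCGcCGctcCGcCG
OR2B11, chr1:247457959-247458258, minus strand: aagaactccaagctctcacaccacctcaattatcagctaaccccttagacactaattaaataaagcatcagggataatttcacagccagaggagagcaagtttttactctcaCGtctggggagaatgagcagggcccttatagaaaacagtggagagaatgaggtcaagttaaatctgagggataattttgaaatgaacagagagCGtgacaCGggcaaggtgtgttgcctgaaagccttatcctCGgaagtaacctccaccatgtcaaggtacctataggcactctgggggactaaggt

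ACTG1 (5954 CPM) had 50 CG dinucleotides in this window and OR2B11 (0 counts in each sample) had 4. The keratin-associated protein genes, of which none reached 1 CPM, held TATAAA in 76% of 75 promoters, and in 45.3% it began 40 to 20 bases before the start. A pair from the silent run on chromosome 21 shows it, from 45 bases before to 15 bases after the start, with TATAAA in capitals.
KRTAP13-1, chr21:30395986-30396045, plus strand: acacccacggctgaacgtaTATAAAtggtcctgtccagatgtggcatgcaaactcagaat
KRTAP24-1, chr21:30282936-30282995, minus strand: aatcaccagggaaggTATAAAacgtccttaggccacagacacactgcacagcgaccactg

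The hexamer began 26 bases before the start in KRTAP13-1 and 30 in KRTAP24-1. In the clustered histone genes, which are copied into RNA during DNA replication, TATAAA was found in 59.0% of 61 promoters. Matches describe the reference sequence only, and factor binding and DNA methylation were not analysed here.

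**Figure D4:**
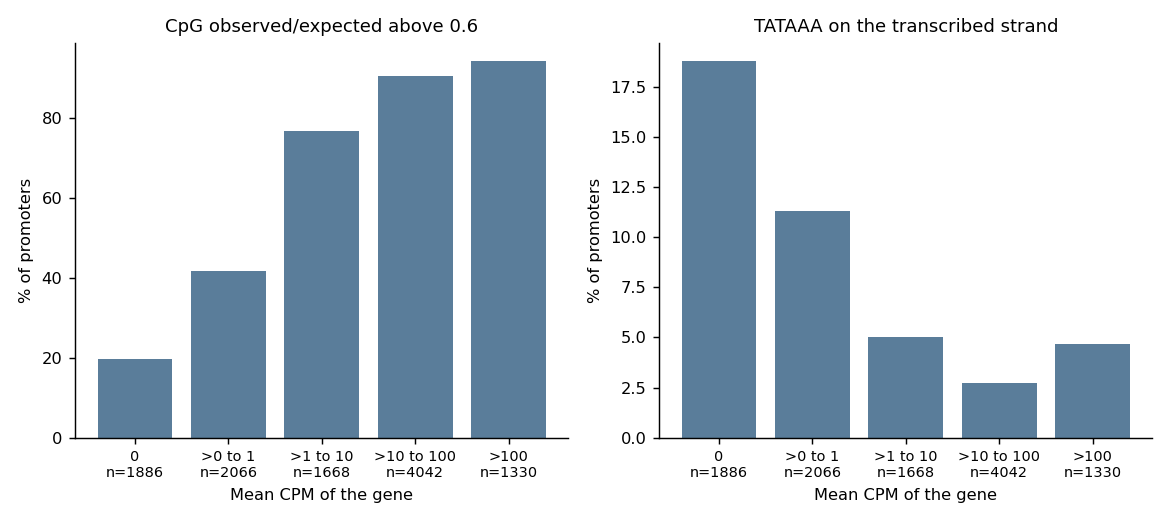
Percent of promoters (300 bases around the start, coding genes with a single listed start) with an observed to expected CG ratio above 0.6 (left) and with TATAAA on the transcribed strand (right), by class of mean CPM, with the number of promoters under each bar. The CG share rises from 19.7% at 0 counts to 94.3% over 100 CPM, and TATAAA goes from 18.8% to 4.66%.

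The 3 siControl samples agreed closely. Over the 9490 genes with a mean of 10 CPM or more, the median coefficient of variation (CV) of CPM was 4.50%, beside a median of 3.49% for counting error alone, and 92.7% of the genes had a CV under 10%. The median CV was 11.2% for genes of 1 to 10 CPM, where counting error is 12.2%, and 4.30% for genes over 1000 CPM, where it is 0.633%. Counting error is here the SD expected from counting, as a percent of the mean. From counting alone, the median CV of 3 samples would lie below it, so these pairs understate the spread beyond counting. The CV was above counting error in 44.3% of genes of 1 to 10 CPM and in 98.8% of genes over 1000 CPM. The biological coefficient of variation from edgeR was 4.24%. Replicate 1 stood somewhat apart: the mean squared difference per gene, relative to counting error, was 6.27 between replicates 1 and 2, 5.34 between 1 and 3 and 2.12 between 2 and 3. Without replicate 1 the median CV was 2.91% and the biological coefficient of variation 2.52%.

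The departure of replicate 1 went with base composition. Its log2 CPM lay 0.05 above the mean of the others in the lowest of 4 equal groups of genes by GC content and differed by -0.09 in the highest. In the same groups replicate 2 differed from the mean of the others by -0.01 and 0.04, and replicate 3 by -0.04 and 0.05. By transcript length, replicate 1 differed from the mean of the others by -0.05 in the shortest of 4 equal groups and 0.04 in the longest, replicate 2 by 0.05 and -0.04, and replicate 3 by 0.00 and -0.01. The part of GC content and length in the spread was not tested. GC content was known for 92.5% of these genes. Single genes did not all follow this. Of the 20 genes with the most counts, FTL (GC content 56.0%) was lowest in replicate 1 and ITGB1 (39.6%) was highest there, but SLC7A5 (61.2%) and SLC3A2 (57.8%) were highest and EEF1A1 (42.4%) lowest in that sample.

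**Figure D5:**
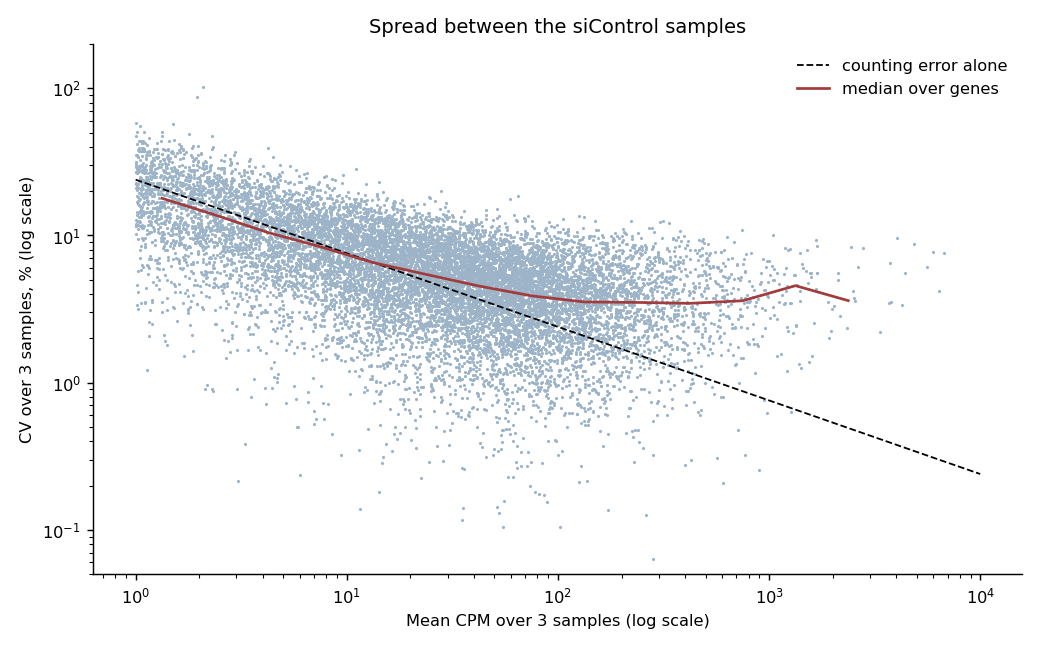
CV over the 3 siControl samples (percent, log axis) against mean CPM (log axis), one point per gene of 1 CPM or more, with the median over genes in bins (red) and the CV of counting error alone (dashed). The median lies near the dashed line up to about 10 CPM and levels off near 4% above it. From counting alone, the median CV of 3 samples would lie below that line.

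The genes with the largest CV at 10 CPM or more were HES4, a Notch target (8.31, 14.5 and 10.5 CPM, CV 28.1%), ZNF358 (10.4, 16.2 and 15.9 CPM), the pseudogene RPL23P8 (CV 22.4%) and FRAS1, which encodes an extracellular matrix protein (34.2, 23.2 and 26.4 CPM, CV 20.2%). They were the 4 genes with a CV over 20%, and HES4 and ZNF358 were lowest in replicate 1 and FRAS1 highest. ZNF205, NSUN5P2, F12, NIPAL3, STARD10 and TCP11L2 completed the 10 largest, with CVs of 18.6% to 19.9%. The smallest CVs belonged to RUSC1 (33.1 CPM in each sample, CV 0.0367%), DCAF13 (281 CPM, CV 0.0635%) and SLC25A24 (102 CPM, CV 0.105%), followed by CCDC73, NEK6, PDXDC1, INTS3, ATP5C1, SRD5A1 and FAM21A. These values are below counting error, and among 9490 genes some fall there. Of genes widely used as references, PGK1 had 939, 951 and 938 CPM, TBP 20.7, 20.2 and 20.7 CPM, GAPDH 3550, 3755 and 3785 CPM and TFRC 533, 449 and 468 CPM. PGK1 and TBP varied least of these and TFRC most.

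Interferon-stimulated genes, which respond to foreign RNA, had a median of 2.93 CPM in these transfected cells. Of 23 such genes 13 (56.5%) had 1 CPM or more in each sample, beside 63.4% of genes with a coding accession, and 1 was over 100 CPM. OAS1 had 57.4, 50.8 and 52.1 CPM, whereas MX1 had 2.93 ± 0.11 CPM (SD, n = 3), IFIT1 1.79 ± 0.45 CPM and ISG15 7.75 ± 0.64 CPM. CXCL10 and IFNB1 were at 0 in each sample.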

How the data were processed

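RNA-Seq of 3 siControl samples of A549 cells was described. The authors used STAR for alignment to hg19 and HOMER for counting, and deposited unnormalized estimated counts of RefSeq transcripts, all multiples of 0.5. The deposited fold change (a ratio) and p-value columns, from the authors' edgeR comparison with the knock-down, were not used. The counting options and the library type are not given in the sources used here. Of 38767 rows, 1182 without symbol and counts were left out. For each of 23180 symbols, the transcript with the highest sum over the 6 samples was kept. CPM were computed from the totals of that table, with SD over the 3 samples and no test. The members, lists and rules were chosen with earlier results of these data known. Named genes were the 20 highest by CPM and by CPM per kb (300 bases or more), list members, the 10 largest and smallest CVs at 10 CPM or more, and the ends of the 5 longest silent runs. The name patterns of 4 families (cancer-testis antigens, keratin-associated proteins, microRNAs, RAB GTPases) were narrowed after their members had been seen. Dispersion came from edgeR 4.0.16 (R 4.3.3) on rounded counts of genes with a mean of 10 CPM or more, with an intercept only. Dispersion was tested on simulated data. Genes without counts were kept without counts in that simulation, so their recovery was fixed in advance and tests nothing. Strand and GC content came from GRCh37 (GENCODE v44), the latter from the annotated transcript nearest in length. Promoters came from RefSeq (GRCh38.p14), matched for 12200 symbols with a single listed start. Y-linked genes and a few other named genes are not reported here. Alternatives were TMM factors, other transcripts per symbol, other thresholds, CPM per kb and each sample left out.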

Additional observations from a re-analysis of the deposited data

How the results depend on the processing

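The number of genes at 1 CPM or more and the abundance classes stayed within 1.5 times of the reported numbers under TMM factors, either other choice of transcript, 0.5 CPM, 10 counts and each sample left out. With silence set at 3 counts or fewer in each sample, 7579 genes were silent, the longest run held 79 genes and 230 runs held 5 or more. The 10, 100 and 1000 most abundant genes held 6.99%, 28.4% and 63.4% by CPM per kb, and 7.42%, 23.1% and 58.3% with transcripts summed, where shared exons count more than once. The median CV was 7.90% without a filter and 5.51% from 1 CPM. With a sample left out it was 2.91% to 4.25%, and the biological coefficient of variation 2.52% to 5.14%. By CPM per kb, TATAAA was found in 6.35% of coding promoters over 100. Of 215 list counts under the alternatives, 208 stayed within 1.5 times. The 7 others concern airway, olfactory, taste, beta-defensin and snoRNA genes, all with 9 or fewer members at 1 CPM. Depth limits statements on genes below 0.193 CPM. No paired analysis was possible because a single group was described.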
